A study of Rattus norvegicus with 18 samples.

Results

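The genes described here are 40 of the 30643 measured, fibroblast markers and genes of the extracellular matrix, collagens left out. They were chosen by name, with differences between OA and sham in these same libraries already known, so the OA and sham values below are given as a description and carry no test. The members fell into 11 fibroblast markers, 6 small leucine-rich proteoglycans, 7 proteins of microfibrils and elastic fibres, 3 lysyl oxidases, 3 genes of hyaluronan synthesis and breakdown, 6 adhesive or matricellular proteins and 4 other secreted proteins.

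RNA was sequenced from cells of rat knee synovium, the membrane that lines the joint, after selection on magnetic columns for CD11b/c, a surface marker of monocytes and macrophages. Wild type male Sprague Dawley rats underwent destabilisation of the knee at 12 weeks of age, by cutting the anterior cruciate ligament and releasing the medial meniscus, as a model of post traumatic osteoarthritis (OA), or sham surgery. Synovium was collected 4 or 12 weeks later, which gave 5 OA and 5 sham libraries at 4 weeks, each a pool of 4 rats, and 4 OA and 4 sham libraries at 12 weeks, each a pool of 3 rats. Because each library is a pool, the spread between libraries is a spread between pools and not between animals.

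Synovial fibroblasts line the joint cavity, where they secrete lubricin and hyaluronan into the synovial fluid, and fill the tissue beneath the lining, where they lay down collagen fibrils, microfibrils and the proteoglycans that coat them. In osteoarthritis the synovium thickens and can become fibrotic, and these cells are a main source of the new matrix. Most of the members are classed as genes of fibroblasts and not of macrophages, although Fn1 and Pdpn are also made by macrophages.

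The libraries held 4662344 to 18080503 reads, the lowest being sham replicate 3 of 4 weeks. The members took 0.726% to 1.00% of reads in OA and 0.731% to 1.06% in sham at 4 weeks, and 0.869% to 0.982% in OA and 0.648% to 0.910% in sham at 12 weeks. All 15 myeloid markers looked at were measured, with Csf1r, the receptor for the macrophage growth factor, at 21724 to 28192 normalized reads in OA and 20785 to 24072 in sham at 4 weeks. Genes of other cells were measured too. At 4 weeks the endothelial gene Cdh5 was at 5052 to 7314 in OA and 5870 to 7378 in sham. The collagen gene Col1a1 was at 15808 to 21460 and 8093 to 25720. These levels do not give the share of macrophages among the cells. Itgam, which encodes CD11b, stood at 3745 to 5339 in OA and 2269.9 to 6917 in sham at 4 weeks and at 4651 to 6051 and 3700.0 to 6104 at 12 weeks, and its lowest value of each week lay in sham replicate 3. Normalized reads are reads divided by a size factor of each library, and the tables of 4 and 12 weeks were scaled separately, so their values are compared here only within a week. In RNA from a whole cell preparation, fewer fibroblasts carried through the selection and less RNA per fibroblast cannot be told apart.

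A pair of libraries stood apart in the members. Sham replicate 4 had the highest value of its group in 23 of 38 members at 4 weeks, and sham replicate 3 in 29 of 38 at 12 weeks. That 12-week library also had the lowest mean log2 level of the 15 myeloid markers among the 8 libraries of its week, 12.65 against 12.98 to 13.22 in the others. Median OA minus sham differences, counts of limma calls and some correlations are therefore given with and without these libraries. Most other values are given only with them. Counts below cover 38 members, since genes averaging under 10 normalized reads in a week were not fitted. Left out were Mfap4, a microfibril-associated glycoprotein, with 1 read in 1 library of 18, and Aspn (asporin), with 1 read in each of 2 libraries, where 3 reads are worth 2.06 to 6.96 normalized reads.

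Promoter sequence was looked up for the members in RefSeq (rat build GRCr8), as windows of 250 bases before and 50 after the annotated start, and 26 of the 40 members had one. Shown are the 100 bases before the start of 6 members on which the results below turn: Cemip, C1qtnf3 and Postn, from among the members with large differences between OA and sham, and Prg4, Pdpn and Fbn2, which changed between weeks. Each is written 5′ to 3′ on the strand of the gene, with a motif match on either strand in capitals: the TATA box (TATAAA) in the first 4, the GC box (GGGCGG) in Pdpn and the TEAD motif (GGAATG) in Fbn2.
Cemip (chr1:147471484-147471583, minus strand): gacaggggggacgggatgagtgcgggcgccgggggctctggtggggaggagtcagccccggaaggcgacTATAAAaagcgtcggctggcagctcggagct
C1qtnf3 (chr2:61644216-61644315, plus strand): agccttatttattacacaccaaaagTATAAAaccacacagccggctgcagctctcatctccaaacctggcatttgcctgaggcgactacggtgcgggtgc
Postn (chr2:140677961-140678060, plus strand): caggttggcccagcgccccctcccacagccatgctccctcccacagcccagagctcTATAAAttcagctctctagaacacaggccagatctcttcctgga
Prg4 (chr13:65054226-65054325, minus strand): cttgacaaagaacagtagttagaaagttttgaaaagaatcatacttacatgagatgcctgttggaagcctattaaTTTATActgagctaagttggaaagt
Pdpn (chr5:160918960-160919059, minus strand): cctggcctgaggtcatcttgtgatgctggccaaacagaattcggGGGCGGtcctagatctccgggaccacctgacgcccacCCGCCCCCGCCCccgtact
Fbn2 (chr18:53901993-53902092, minus strand): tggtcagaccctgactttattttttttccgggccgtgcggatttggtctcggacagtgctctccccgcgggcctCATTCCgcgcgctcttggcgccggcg

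The TATA box, bound by the TATA-binding protein, was found in 7 of the 26 members with a window, C1qtnf3, Cemip, Dpt, Ogn, Postn, Prg4 and Tnc, and in 14.2% of 33469 windows of all genes. Its match began 31 bases before the start in Cemip, 29 in Dpt, 44 in Postn and 75 in C1qtnf3, all on the strand of the gene, and 25 bases before it on the opposite strand in Prg4. The GC box was present in 8 members (33.1% of all windows) and the TEAD motif in 6 (14.2%), namely C1qtnf3, Fbn2, Loxl1, Mamdc2, Ogn and Sparc. The AP-1 motif (TGACTCA) occurred in Vit alone (4.63%), and neither the E box (CACGTG, 6.42%) nor the CArG box of serum response factor (1.64%) occurred in any of the 26. A match is a run of letters and not a bound site.

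The first comparison was OA against sham at each week, which addresses how RNA of the selected synovial cells differs after destabilisation. Most members were higher in OA. At 4 weeks 28 of 38 had a positive log2 difference (57.1% of 14861 genes tested) with a median of 0.31 (0.03 for all genes), and at 12 weeks 31 of 38 did (47.5% of 14666) with a median of 0.55 (-0.01 for all genes). The differences are log2(normalized reads + 1), OA minus sham, from limma. They reached 0.5 or more in 15 members at 4 weeks (1.35% of all genes) and in 20 at 12 weeks (4.48%), and -0.5 or less in none at either week (6.03% and 1.79%). Without sham replicate 4 the 4-week median was 0.44, and without sham replicate 3 the 12-week median was 0.70.

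By the call used throughout, a log2 difference of at least 0.5 in size with an adjusted p under 0.05 in limma, 0 of 38 members were called at either week, as were 0.0% of all genes. At an unadjusted p under 0.05, limma gave 14 of 38 at 4 weeks (7.92% of all genes) and 26 of 38 at 12 weeks (12.4%). By the same call on whole reads, edgeR called 0 at either week (0.0%), and DESeq2 called 3 higher at 4 weeks, C1qtnf3, Fap and Htra3 (0.106% of all genes), and 11 higher at 12 weeks (0.567%), C1qtnf3, Cemip, Fap, Fbn2, Htra3, Islr, Loxl1, Lrrn4cl, Mamdc2, Mfap5 and Vit. Every OA library lay above every sham library in 4 members at 4 weeks (1.18% of all genes), Fap, Htra3, Lrrn4cl and Vit, and in 13 at 12 weeks (2.85%). The reverse held for no member at 4 weeks (0.693%) and for Clec3b at 12 weeks (3.44%). Nothing is read from these counts, since the members were picked on this contrast. Without sham replicate 4 of 4 weeks, limma called 0 members at that week. Without sham replicate 3 of 12 weeks, limma called 13 members higher and DESeq2 20, and without sham replicate 4 of 12 weeks limma called 1, Mamdc2. Shares of all genes called with a library left out are not given here, so nothing is read from these counts either.

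**Figure D1:**
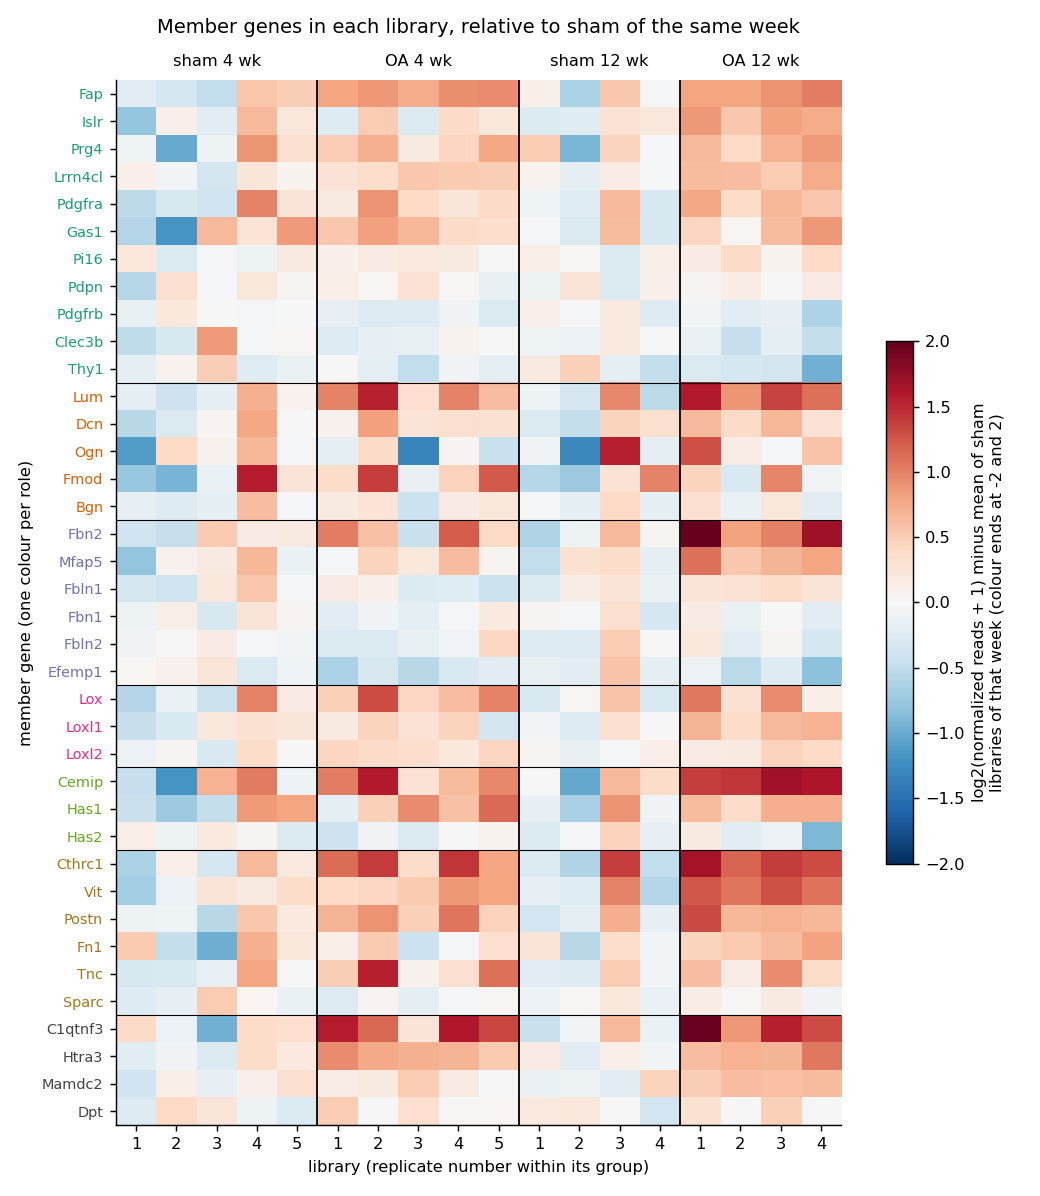
Level of each of the 38 members in each of the 18 libraries, as log2(normalized reads + 1) minus the mean of the sham libraries of the same week (colour), with genes as rows grouped by role and libraries as columns grouped by surgery and week. OA columns are red in rows such as Fap, Lum, Cemip, Cthrc1 and C1qtnf3 and mostly pale blue in Thy1 and Efemp1, and sham replicate 4 at 4 weeks and sham replicate 3 at 12 weeks are redder than the other sham columns.

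Among the 11 fibroblast markers, Fap, a surface protease of activated fibroblasts, had the largest difference at both weeks. Fap was at 1094, 1153, 1061, 1202 and 1221 normalized reads in OA and 545, 501, 448, 929 and 890.2 in sham at 4 weeks. At 12 weeks Fap was at 1414, 1413, 1527 and 1658 in OA and 881, 529, 1183 and 807 in sham. No OA library fell into the sham range at either week, and the log2 difference was 0.85 (SE 0.19) at 4 weeks and 0.88 (SE 0.20) at 12 weeks. Paired differences below are given in the same order.

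Lrrn4cl, a leucine-rich repeat membrane protein, and Islr, an immunoglobulin-superfamily protein of mesenchymal cells, were higher by smaller steps. Lrrn4cl was at 549, 575, 656, 645 and 637 in OA against 483, 431, 350.5, 533 and 475 in sham at 4 weeks. At 12 weeks Lrrn4cl was at 853, 844, 788 and 920.2 in OA and 579.6, 479.6, 612 and 546 in sham. Lrrn4cl differed by 0.44 (SE 0.11) and 0.62 (SE 0.09). For Islr the 4-week groups overlapped (225, 382, 220.4, 352 and 311 in OA and 157, 289.8, 232, 423 and 317 in sham), and the difference of 0.11 turned below 0 without sham replicate 1. At 12 weeks Islr stood at 547, 437, 529 and 505 in OA and 249, 254, 369 and 351 in sham, with no overlap and a difference of 0.74 (SE 0.14).

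Prg4 encodes lubricin, the surface lubricant of the joint, and Pdgfra a growth factor receptor carried by most fibroblasts. For Prg4 the 4-week values were 462, 532, 369, 438 and 559 in OA and 307, 161, 302, 599 and 409 in sham, and the 12-week values 1300.2, 1101, 1345 and 1496 in OA and 1182, 441, 1135 and 807 in sham. The groups overlapped at both weeks, and the differences were 0.52 (SE 0.27) and 0.65 (SE 0.27). Pdgfra stood at 532, 873, 615, 557 and 615 in OA and 326, 377, 355, 929 and 558 in sham at 4 weeks. At 12 weeks Pdgfra was at 1454, 1097, 1351 and 1239.8 in OA and 802, 718, 1342 and 686 in sham. Pdgfra differed by 0.42 (SE 0.25) and 0.58 (SE 0.19), and sham replicate 4 was the highest of all libraries at 4 weeks, while sham replicate 3 lay among the OA values at 12 weeks.

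Other markers of the same cells went the other way or differed little. Thy1, a surface glycoprotein of fibroblasts beneath the lining and of vessel-wall cells, was at 737, 636, 519, 695 and 639.9 in OA and 640.0, 767, 1028, 616 and 667 in sham at 4 weeks. At 12 weeks Thy1 was at 684, 659.7, 652 and 429 in OA and 949.9, 1168, 740.3 and 606 in sham. OA values were lower on average but overlapped sham values. Thy1 differed by -0.19 (SE 0.14) and -0.49 (SE 0.21). Pdgfrb, a receptor of pericytes and fibroblasts, was at 2198, 2058, 2064, 2353 and 2006 in OA and 2216, 2832, 2442, 2382 and 2464 in sham at 4 weeks. At 12 weeks Pdgfrb was at 3039, 2716, 2836 and 2064 in OA and 3418, 3084, 3631 and 2643 in sham. Pdgfrb differed by -0.21 (SE 0.08) and -0.27 (SE 0.13).

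Clec3b (tetranectin), a plasminogen-binding protein, was at 683, 541, 651 and 536 in OA and 706, 690.1, 857 and 742 in sham at 12 weeks, the one member with every OA library below every sham library, with a difference of -0.32 (SE 0.10). Its 4-week values were 337, 359, 359.9, 421 and 398 in OA and 282, 321, 726, 389 and 406 in sham, and the difference of -0.10 turned above 0 without sham replicate 3. Pdpn (podoplanin), a mucin-type membrane protein of lining fibroblasts, differed by 0.07 (SE 0.15) and 0.09 (SE 0.11). Pi16, a marker of fibroblast progenitors around vessels, differed by 0.13 (SE 0.10) and 0.25 (SE 0.11). Gas1, a growth-arrest gene, differed by 0.55 (SE 0.33) and 0.49 (SE 0.23).

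Small leucine-rich proteoglycans bind collagen fibrils and set their spacing and width. Lum (lumican) differed most among them. It was at 1864, 2714, 1181, 1863 and 1438 in OA and 822, 702, 817, 1526 and 980.4 in sham at 4 weeks. At 12 weeks Lum was at 2486, 1524, 2109.5 and 1785 in OA and 769, 660.0, 1615 and 578 in sham. Lum differed by 0.90 (SE 0.23) and 1.23 (SE 0.28). In each week a single sham library, replicate 4 and then replicate 3, lay inside the OA range.

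Dcn (decorin), the classical fibril-coating proteoglycan, was at 3283, 5474, 3722, 3882 and 3842 in OA and 2100.5, 2537, 3215, 5322 and 3129 in sham at 4 weeks. At 12 weeks Dcn was at 7991, 6623, 7991 and 6211 in OA and 4155, 3639, 6879.8 and 6353 in sham. Its groups overlapped in both weeks. Dcn differed by 0.36 (SE 0.21) and 0.50 (SE 0.20). Bgn (biglycan) differed by 0.08 and 0.05, Fmod (fibromodulin) by 0.66 (SE 0.43) and 0.27 (SE 0.38), and Ogn (osteoglycin), with 6.45 to 24.6 normalized reads in sham at 4 weeks, by -0.30 (SE 0.40) and 0.50 (SE 0.54).

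Fibrillins form the microfibrils on which elastic fibres are built, and the pair measured here differed from sham to unlike degrees. Of these, Fbn2, the fibrillin best known from development, was at 135, 99.1, 48.1, 154 and 86.8 in OA and 49.7, 47.5, 95.2, 73.8 and 74.6 in sham at 4 weeks, with overlap. At 12 weeks Fbn2 was at 74.2, 29.6, 34.3 and 55.8 in OA and 10.6, 15.5, 26.7 and 17.2 in sham, without overlap. Its differences were 0.55 (SE 0.29) and 1.40 (SE 0.34). Fbn1, the main fibrillin of adult tissue, was at 7492, 8263, 7701, 8471 and 9929 in OA and 8109.9, 9439, 6937, 10400.4 and 9048 in sham at 4 weeks. At 12 weeks Fbn1 was at 10355, 8422, 9286 and 7929.7 in OA and 9564, 9031, 11442 and 7282 in sham. Fbn1 differed by -0.06 (SE 0.12) and -0.04 (SE 0.14), and the sign turned without sham replicate 4 at 4 weeks and without OA replicate 4 or sham replicate 3 at 12 weeks.

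Efemp1 (fibulin-3) was lower in OA. It stood at 1079, 1347, 1138, 1365 and 1435 in OA and 1733, 1781, 1982, 1378 and 1587 in sham at 4 weeks, where sham replicate 4 lay below OA replicate 5. At 12 weeks Efemp1 was at 1715, 1289, 1567 and 1056 in OA and 1677, 1597, 2768 and 1633 in sham, where OA replicate 1 lay in the sham range. Efemp1 differed by -0.41 (SE 0.11) and -0.43 (SE 0.19). The fibulins Fbln1 and Fbln2 differed by -0.14 and -0.07 at 4 weeks and by 0.29 and -0.07 at 12 weeks. Mfap5, a microfibril-associated glycoprotein, differed by 0.26 (SE 0.23) at 4 weeks and by 0.77 (SE 0.20) at 12 weeks, where the groups did not overlap (249 to 367 in OA and 121 to 220.0 in sham).

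Lysyl oxidases crosslink collagen and elastin, and all 3 were higher on average in OA at both weeks. Lox was at 392, 691, 372, 431 and 556 in OA and 186, 255, 209, 557 and 314 in sham at 4 weeks. At 12 weeks Lox was at 619.6, 367, 574 and 323 in OA and 241, 304, 443 and 241 in sham, with overlap at each week and differences of 0.76 (SE 0.27) and 0.60 (SE 0.25). Loxl1 differed by 0.20 (SE 0.19) and 0.60 (SE 0.13), and Loxl2 by 0.36 (SE 0.11) and 0.30 (SE 0.09). Only at 12 weeks did the OA and sham ranges of Loxl1 (307 to 386 and 199 to 296) and Loxl2 (1914 to 2365 and 1539 to 1878) stay apart.

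Hyaluronan, the long sugar polymer of synovial fluid, is made by Has1 and Has2 and depolymerised with the help of Cemip. The breakdown gene differed most. Cemip was at 177, 261, 106, 135 and 169 in OA and 62.6, 37.8, 142, 178 and 81.0 in sham at 4 weeks. At 12 weeks Cemip was at 287, 296, 349.6 and 337 in OA and 109, 53.3, 172 and 141 in sham. Cemip differed by 0.90 (SE 0.37) and 1.53 (SE 0.29), and only the 12-week groups were apart. The synthases lay on opposite sides of 0. Has1 was at 146, 229.6, 317, 248 and 361 in OA and 121, 98.9, 118, 298 and 286 in sham at 4 weeks. At 12 weeks Has1 was at 664, 551, 709 and 711 in OA and 380.1, 272, 799 and 406 in sham. Has1 differed by 0.59 (SE 0.34) and 0.61 (SE 0.26). Has2 was at 301, 383, 327, 398 and 419.7 in OA and 437, 375, 459.6, 415 and 330.5 in sham at 4 weeks. At 12 weeks Has2 was at 611, 462, 494 and 288 in OA and 447, 523, 744 and 483 in sham. Has2 differed by -0.14 (SE 0.12) and -0.26 (SE 0.22), and both synthases overlapped between groups at both weeks.

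Adhesive and matricellular proteins link cells to the matrix, and 4 of the 6 differed by at least 0.5 at 4 weeks and 5 at 12 weeks. Cthrc1, a secreted protein of matrix-producing fibroblasts, was at 148, 180.1, 87.9, 184 and 118 in OA and 43.3, 74.6, 53.4, 107 and 77.3 in sham at 4 weeks. At 12 weeks Cthrc1 was at 112, 78.6, 92.2 and 86.9 in OA and 28.0, 22.3, 91.6 and 24.1 in sham. Cthrc1 differed by 1.02 (SE 0.25) and 1.39 (SE 0.39). The 4-week ranges overlapped, and sham replicate 3 of 12 weeks had over 3 times the reads of any other sham library of that week and lay within the OA range. Postn (periostin) was at 2339, 2741, 2044, 3067 and 2013 in OA and 1359, 1378, 996, 2134 and 1679 in sham at 4 weeks. At 12 weeks Postn was at 3007, 1898, 1956 and 1914 in OA and 921, 1066, 1987 and 1074 in sham. Postn differed by 0.72 (SE 0.18) and 0.84 (SE 0.23), and again 1 sham library of each week reached the OA values.

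Fn1 (fibronectin) had no overlap between groups at 12 weeks, and Vit (vitrin) had none at either week. Vit was at 121, 121, 131, 166 and 158 in OA and 56.2, 83.4, 109, 103 and 117 in sham at 4 weeks. At 12 weeks Vit was at 333, 297, 341 and 301 in OA and 126, 119, 281 and 93.1 in sham. Vit differed by 0.60 (SE 0.19) and 1.17 (SE 0.28). Fn1 was at 29124, 38442, 19907, 25943 and 33505 in OA and 38162, 19169, 13513, 43863 and 31216 in sham at 4 weeks, where the difference of 0.10 (SE 0.30) changed sign without OA replicate 2, sham replicate 2 or sham replicate 3. At 12 weeks Fn1 was at 42539, 44808, 48661 and 54816 in OA and 37644, 21211, 39946 and 30148 in sham, a difference of 0.60 (SE 0.19) with no overlap. Tnc (tenascin C) differed by 0.71 (SE 0.28) and 0.52 (SE 0.20), and Sparc (osteonectin) by -0.08 and 0.07.

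C1qtnf3, a secreted protein of the C1q and TNF family, had the largest difference of all members at 4 weeks. It was at 153, 113, 61.1, 155 and 129 in OA and 66.3, 46.5, 25.5, 65.6 and 64.4 in sham at 4 weeks. At 12 weeks C1qtnf3 was at 97.7, 44.9, 72.9 and 61.1 in OA and 17.4, 23.2, 38.2 and 21.8 in sham. C1qtnf3 differed by 1.18 (SE 0.30) and 1.43 (SE 0.28). Only OA replicate 3 of 4 weeks lay inside a sham range. Htra3, a secreted serine protease listed here with the secreted proteins, had no overlap at either week, at 474, 418, 402, 396 and 354 in OA and 214, 235, 202, 316 and 284 in sham at 4 weeks. At 12 weeks Htra3 was at 467, 496, 489 and 633 in OA and 343, 259.5, 331 and 295 in sham. Htra3 differed by 0.72 (SE 0.13) and 0.76 (SE 0.12). Mamdc2, a secreted proteoglycan, differed by 0.20 (SE 0.14) and 0.59 (SE 0.13), and Dpt (dermatopontin) by 0.18 and 0.19.

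**Figure D2:**
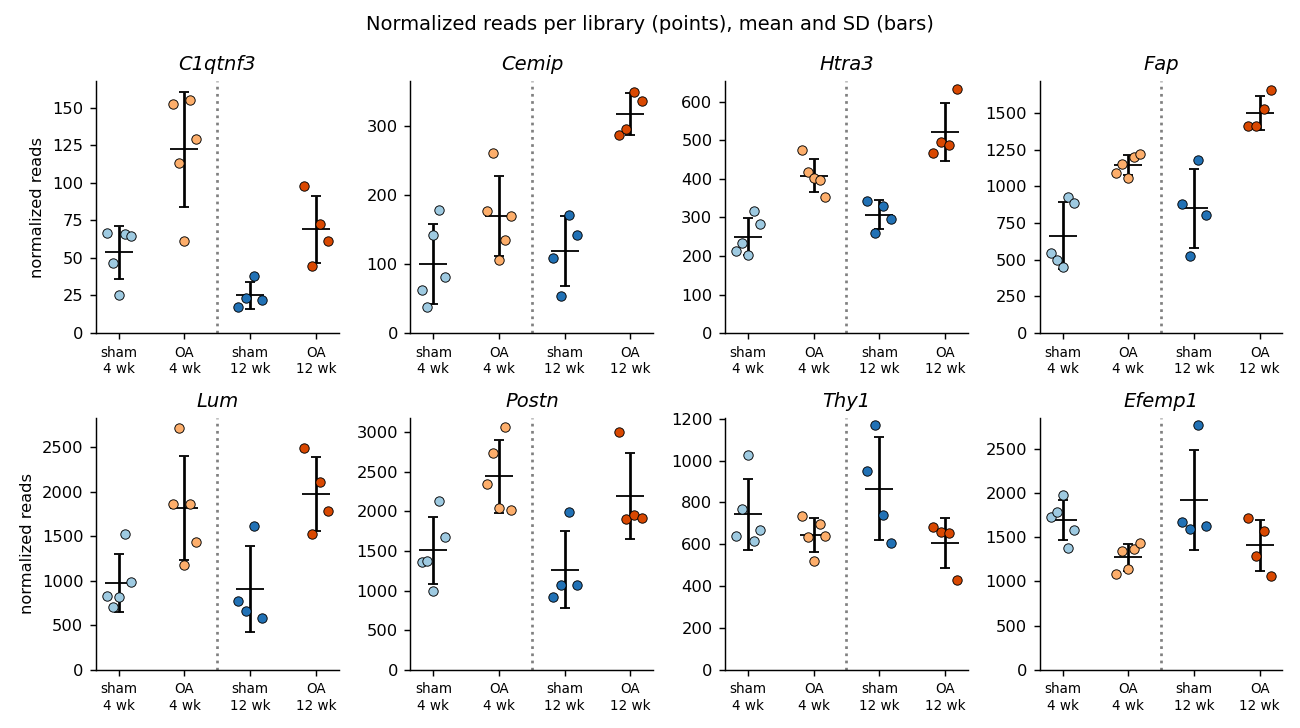
Normalized reads of 8 members in each library (points), with the mean and SD of each group (bars), for sham and OA at 4 weeks (n = 5 each) and 12 weeks (n = 4 each), where the dotted line parts weeks that were scaled separately. Htra3 and Fap have no overlap between OA and sham at either week, whereas for Lum and Postn 1 sham library of each week reaches the OA values.

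The members' differences at the 2 weeks, which share no library, lay near one another. Over the 38 members the Pearson correlation of the 4-week and 12-week differences was 0.82, against 0.21 over 14420 genes tested at both weeks, where genes are not independent replicates and the members were chosen with both weeks known. Of the members, 28 were above 0 at both weeks, 7 were below 0 at both, and 30 had a difference of larger size, in either direction, at 12 weeks. Over the 14420 genes these counts were 4633, 3791 and 7549. The largest gaps between weeks, in the fit of all 18 libraries, were those of Fbn2, 0.82 (SE 0.47), Ogn, 0.76 (SE 0.65), and Islr, 0.66 (SE 0.32), on the log2 scale. As a description of this second-order contrast, limma called 0 of 38 members and 0.0% of 14837 genes, with 0 of 38 members at an unadjusted p under 0.05 (3.29% of all genes). Both edgeR and DESeq2 called 0 (0.0%). Each had 1 member at an unadjusted p under 0.05, a count for which no share of all genes is given here.

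**Figure D3:**
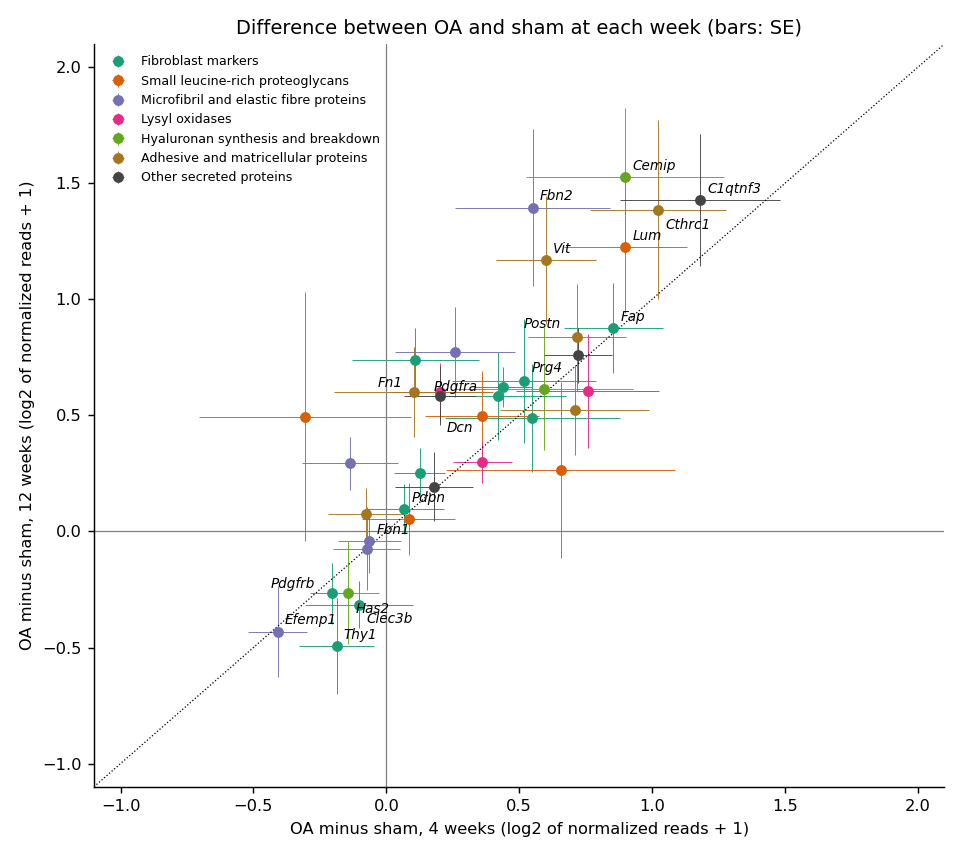
Log2 difference between OA and sham of each of the 38 members at 4 weeks (horizontal) and 12 weeks (vertical), with SE bars and one colour per role, where the dotted line marks equal differences. Most points lie in the upper right, and 26 lie above the line of equal differences, against 5701 of 14420 for all genes. Thy1, Efemp1, Pdgfrb, Has2 and Clec3b lie in the lower left.

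Genes of the same matrix outside the members were compared in the same way. All 10 collagens were above 0 at 4 weeks and 9 of 10 at 12 weeks, with medians of 0.45 and 0.47. Of 54 further matrix and fibroblast genes tested, 35 were above 0 at 4 weeks and 37 at 12 weeks, with medians of 0.11 and 0.17. In neither list was a gene called by limma, whereas DESeq2 called Col5a1 higher at 12 weeks, and, of the further genes, Ccn5, Creb5, Igfbp6, Scara5 and Smoc2 higher and Dpp4, a surface peptidase of progenitor fibroblasts, lower.

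Markers of other cell types were compared by list, beside 47.5% of all genes above 0 at 12 weeks and 57.1% at 4 weeks. In some lists most genes were above 0 at 12 weeks. Cartilage and bone markers were above 0 in 8 of 9 tested, with summed reads of 2971 to 6255 in OA and 1492 to 3777 in sham. For skeletal muscle markers 9 of 10 were above 0, with sums of 1249 to 2137 and 925 to 1119, and for Schwann cell markers 5 of 6, with sums of 6239.5 to 6369 and 5254 to 5910.2. Endothelial markers were above 0 in 1 of 9 (38035 to 46934 and 44025 to 62096), and myeloid markers in 14 of 15 (198735 to 236129.7 and 163643 to 232985). Mural markers, of pericytes and vessel muscle, were above 0 in 3 of 11 (16932 to 21577 and 17753 to 25799). In the remaining lists summed reads overlapped between OA and sham at 12 weeks. Adipocyte markers summed to 1486 to 2168 in OA and 1962 to 3149 in sham. B cell markers were at 398 to 558 and 404 to 798, and mast cell markers at 1312 to 2550 and 1753 to 3135. Neutrophil markers were at 674 to 2604 and 401 to 3435, and T cell markers at 173 to 207 and 144 to 222. At 4 weeks the muscle markers were above 0 in 3 of 9 (373 to 634 in OA and 336 to 903 in sham), the cartilage and bone markers in 4 of 9 and the myeloid markers in 13 of 15. No gene of these lists was at 0 in every library of a group, and their part in the result was not tested.

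The second comparison, 12 against 4 weeks after surgery, was not used to choose the members and was tested in each surgery group on counts scaled to library size (CPM) of all 18 libraries, scaled together. It asks how RNA of the selected cells differs between the early and the late stage. The same libraries gave the OA against sham values known when the members were chosen. Changes between weeks, above all in OA, are therefore not independent of that choice. The median log2 change of the members was -0.01 in sham and 0.19 in OA, against 0.00 and -0.01 for all genes. By limma, 3 of 38 members changed in sham, 1 higher (0.809% of 14837 genes) and 2 lower (0.586%), and 2 of 38 changed in OA, both higher (0.748%) and none lower (0.175%), where 1.40% and 0.923% of all genes were called in either direction. With edgeR 3 members were called in each group (1.32% and 1.05% of all genes), and with DESeq2 5 in each (2.64% and 1.71%). Week goes together with the age of the rats, the number of animals in a pool and any batch of library preparation, which cannot be told apart from it.

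Pdpn, the podoplanin gene, rose in both surgery groups. It was at 84.1, 155, 113, 146 and 130.2 CPM in the sham libraries of 4 weeks and at 206, 264, 178 and 235 in those of 12 weeks, and in OA at 138, 131, 156, 130.1 and 114 and 226, 244, 219 and 244. Every 12-week library lay above every 4-week library of its group. The log2 change was 0.76 (SE 0.15, adjusted p = 0.0119) in sham and 0.82 (SE 0.15, adjusted p = 0.0129) in OA by limma, and the call held in all 25 alternative fits of each contrast.

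Fbn2 fell in sham, from 4.34, 4.08, 7.47, 6.34 and 6.41 CPM to 0.953, 1.32, 2.12 and 1.44, with no overlap and a log2 change of -2.06 (SE 0.34, adjusted p = 0.0045) by limma that held in all 25 alternatives. In OA it went from 11.5, 8.63, 4.26, 13.3 and 7.51 to 5.70, 2.37, 2.72 and 4.31, a change of -1.24 (SE 0.34, adjusted p = 0.0912) in limma that did not pass the threshold, whereas DESeq2 called it (adjusted p = 0.0131). OA libraries overlapped between weeks, replicate 3 of 4 weeks lying within the 12-week range.

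C1qtnf3 fell in sham and was lower on average in OA, at 5.73, 4.00, 2.12, 5.66 and 5.56 and then 1.47, 1.90, 2.96 and 1.79 CPM in sham and at 13.0, 9.86, 5.38, 13.4 and 11.1 and then 7.46, 3.52, 5.61 and 4.71 in OA. Its changes were -1.21 (SE 0.31, adjusted p = 0.0489) in sham, just past the threshold, and -0.96 (SE 0.31, adjusted p = 0.152) in OA by limma. DESeq2 called it in OA as well (adjusted p = 0.0399). The sham call was lost without 15 of the 18 libraries, with an adjusted p of up to 0.15 in limma, and held only without replicate 3 of sham 4 weeks, of OA 4 weeks or of sham 12 weeks.

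Prg4, the lubricin gene, rose in OA, from 39.2, 45.6, 31.7, 37.5 and 47.5 CPM to 97.3, 82.7, 101 and 112, with no overlap and a log2 change of 1.30 (SE 0.30, adjusted p = 0.0363) by limma. That call was lost when every gene with a read was kept, and without any 1 of the 9 OA libraries, where the adjusted p in limma reached 0.113. In sham Prg4 went from 25.9, 13.5, 23.3, 50.4 and 34.5 to 89.4, 33.4, 83.6 and 60.4, by 1.14 (SE 0.30, adjusted p = 0.0553) in limma, which DESeq2 called (adjusted p = 0.0062), and the change in OA minus that in sham was 0.16 (SE 0.42) on the log2 scale, with no call.

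Has1, the hyaluronan synthase, and Vit did not pass the threshold in limma. Has1 was at 10.3, 8.34, 9.25, 25.1 and 24.2 and then 28.9, 20.6, 58.9 and 30.5 CPM in sham, a change of 1.16 (SE 0.34, adjusted p = 0.0788), and at 12.5, 19.8, 27.3, 21.3 and 30.8 and then 49.8, 41.5, 53.2 and 53.2 in OA, a change of 1.22 (SE 0.34, adjusted p = 0.0988). For Vit the values were 10.4, 10.5, 11.4, 14.3 and 13.6 and then 25.1, 22.4, 25.7 and 22.6 in OA, a change of 1.01 (SE 0.25, adjusted p = 0.057) with no overlap, and the sham change was 0.42 (SE 0.25, adjusted p = 0.37). The OA change of Vit was called by edgeR (adjusted p = 0.0408) and DESeq2 (adjusted p = 0.00642). Cthrc1 had log2 changes of -1.13 (SE 0.34, adjusted p = 0.0839) in sham and -0.76 (SE 0.34, adjusted p = 0.3) in OA. Without sham replicate 3 of 12 weeks limma called 5 members in sham, C1qtnf3, Cthrc1, Fbln2, Fbn2 and Pdpn, and without sham replicate 4 of 4 weeks it called 5, Fbn2, Has1, Pdgfra, Pdpn and Prg4. The share of all genes called in these fits is not given here.

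**Figure D4:**
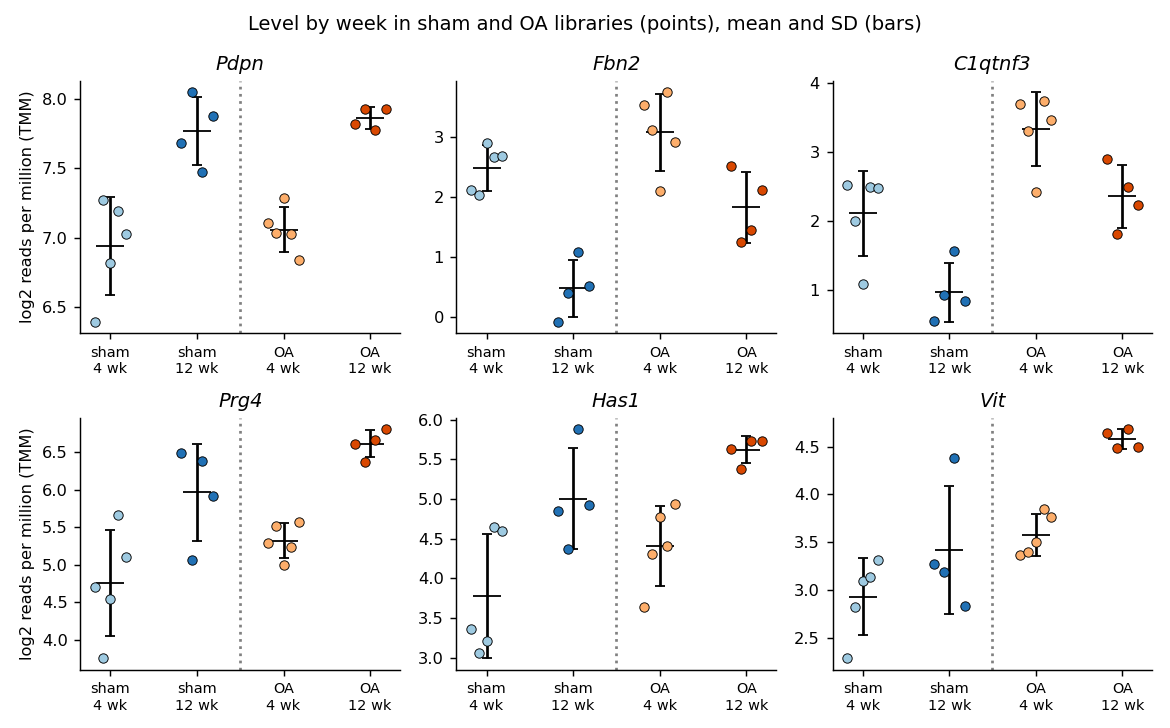
Log2 CPM, scaled across all 18 libraries by the trimmed mean of M values (TMM), of 6 members in each library (points), with the mean and SD of each group (bars), for sham at 4 and 12 weeks (n = 5 and 4) on the left of the dotted line and OA (n = 5 and 4) on the right. Pdpn is higher at 12 weeks in both groups without overlap, Fbn2 is lower in sham without overlap, and Prg4, Has1 and Vit are higher in OA without overlap.

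In OA, 11 of 38 members had every 12-week library above every 4-week library (4.69% of all genes), Clec3b, Fap, Fbln1, Has1, Islr, Lrrn4cl, Pdgfra, Pdpn, Pi16, Prg4 and Vit, of which 8 are fibroblast markers, and none had every one below (5.53%). In sham only Pdpn was apart in that direction (4.54%), and Fbn2 in the other (1.61%). Pdgfra overlapped in sham through replicate 4 of 4 weeks alone (78.1 CPM, next 47.0, lowest at 12 weeks 51.4). Clec3b did so through replicate 3 of 4 weeks alone (56.0, next 34.2, lowest at 12 weeks 52.2). Such overlaps were not counted over all members. As given above, limma called no member for the gap between OA and sham in these changes. Of the 10 collagens, Col12a1, a fibril-associated collagen, fell in both groups, with log2 changes of -0.80 (SE 0.20, adjusted p = 0.0489) in sham and -0.96 (SE 0.20, adjusted p = 0.0253) in OA by limma. Eln (elastin) also fell in both, with log2 changes of -0.78 (SE 0.13, adjusted p = 0.00607) and -0.94 (SE 0.13, adjusted p = 0.00292) in limma. Among the 54 further matrix and fibroblast genes Scara5 and Svep1 rose in OA, by 1.20 (SE 0.25, adjusted p = 0.0242) and 1.16 (SE 0.21, adjusted p = 0.0129) in limma.

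Markers of skeletal muscle were called over the same interval. Limma called 6 of 10 higher in OA and 2 of 10 in sham, Mb and Myh7. The log2 change of Mb (myoglobin) was 2.19 (SE 0.28, adjusted p = 0.00213) in OA and 1.48 (SE 0.28, adjusted p = 0.0113) in sham by limma. The macrophage scavenger receptor gene Cd163 was the only one of 15 myeloid markers called, higher in both groups, and of the mast cell markers only Hdc was called, higher in sham. Of the mural markers, genes of the vessel wall, Mcam was called lower in OA. No gene of these lists was at 0 in every library of a group, and their part in the members' changes was not tested.

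The members also moved together among libraries of the same group. Each library's deviation from its group mean was taken for each gene, and each member was correlated with the mean of the other members. The median Pearson r was 0.55 over the 10 libraries of 4 weeks and 0.73 over the 8 of 12 weeks, against -0.01 and -0.03 for all genes tested. An r above 0.5 was found in 21 of 38 members at 4 weeks (7.14% of all genes) and 27 of 38 at 12 weeks (23.1%), or in 16 (7.45%) and 17 (14.9%) without the library of each week that stood apart. These points share library depth and scaling, and the libraries that stood apart carry part of the pattern: the median was 0.43 without sham replicate 4 of 4 weeks and 0.38 without sham replicate 3 of 12 weeks.

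Of the roles, small leucine-rich proteoglycans followed the mean most closely, with a median r of 0.86 at each week. Their medians were 0.71 and 0.63 without the libraries that stood apart. At 12 weeks adhesive and matricellular proteins were nearly level with them, at 0.86 with every library and 0.46 without sham replicate 3. Dcn had r of 0.90 and 0.77, Lum of 0.84 and 0.94, Bgn of 0.86 and 0.89, and Fmod of 0.93 and 0.43. Of the fibroblast markers Pdgfra followed the mean at 0.86 and 0.95. Thy1 was at -0.10 and -0.29, Pi16 at -0.15 and -0.84, and Pdpn at 0.26 and -0.85. Without the libraries that stood apart Thy1 was at 0.29 and -0.17, Pi16 at 0.06 and -0.61, and Pdpn at 0.04 and -0.63, so the 4-week signs of Thy1 and Pi16 rest on 1 library. Efemp1 and Fbln2 were below 0 at 4 weeks (-0.30 and -0.05) and above 0.5 at 12 weeks (0.89 and 0.92). Their 4-week values turned above 0 without sham replicate 4 (0.26 and 0.02), and the 12-week values were 0.70 and 0.82 without sham replicate 3. Htra3 was at 0.62 and 0.18, and at 0.29 and -0.14 without those libraries.

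**Figure D5:**
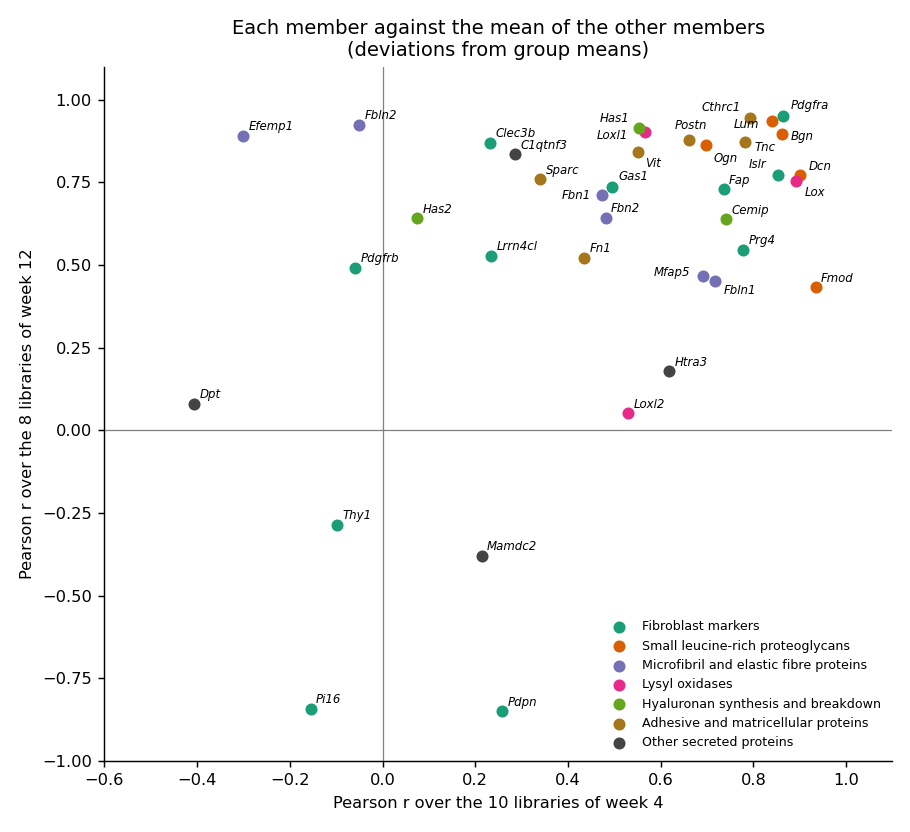
Pearson r of each of the 38 members with the mean of the other members, over the 10 libraries of 4 weeks (horizontal) and the 8 of 12 weeks (vertical), on deviations from group means, with one colour per role. Pdgfra, Lum, Bgn and Dcn lie in the upper right corner, and Pi16 and Pdpn lie at the bottom, near -0.84 and -0.85 at 12 weeks.

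Collagens followed the same mean, with a median r of 0.90 and 0.87, as did cartilage and bone markers at 0.55 and 0.57. Without the libraries that stood apart these were 0.78 and 0.63, and 0.48 and 0.48. At 12 weeks adipocyte markers (0.77), mural markers (0.52) and Schwann cell markers (0.49) also had a positive median r. At 4 weeks theirs were 0.06, -0.15 and 0.17. Myeloid markers had a median r of 0.07 at 4 weeks and -0.84 at 12 weeks, where all 15 were below 0, and -0.16 and -0.53 without the libraries that stood apart. Endothelial markers were at 0.03 and 0.67, and at 0.31 and 0.52 without them. The genes outside the members with the highest r were Ntn4 (0.96), Sod3 (0.96), Ltbp3 (0.95), Igsf10 (0.95), Scarf2, Thbs2, Medag, Ngef, Gpc1 and Prelp at 4 weeks, and Fndc1 (0.99), Plxna4 (0.99), Igsf10 (0.99), Cyb561 (0.99), AABR07045684.1, Plekhh2, Fam160a1, Piezo2, Nrxn2 and Atp9a at 12 weeks, of which Igsf10 was on both lists.

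Prg4, Thy1, Pdgfrb, Itgam, Col1a1 and Fn1 were each paired with Dcn at each week, 12 pairs in all, and tested by exact permutation of libraries within groups, 2-sided. None passed the Benjamini-Hochberg adjustment. The closest was Col1a1 at 4 weeks, with Pearson r of 0.77 (exact permutation p = 0.0144, adjusted 0.173, n = 10) and Spearman rho of 0.77 (permutation p = 0.0549, adjusted 0.658), and r fell to 0.42 without the 2 libraries farthest from the median of Dcn. With Thy1 the r was -0.14 and -0.50 at 4 and 12 weeks, and with Itgam -0.19 and -0.62.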

How the data were processed

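The authors took read quality metrics with fastp (0.20.0), aligned reads with STAR (2.7.6a) to the rat assembly Rnor6, dropped duplicate alignments (Sambamba), summed the rest by gene in featureCounts (2.0.0) and normalised these counts with DESeq2 (1.24.0), from stranded libraries depleted of ribosomal RNA. The deposited values are this normalised read signal, 1 table per week, beside the authors' own fold changes, standard errors, test statistics and p-values, which were not used. Dividing each library by the value of 1 read gave whole reads for 100.0% of values (tolerance 0.01 of a read).

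OA and sham were compared with limma (3.58.1, R 4.3.3) on log2(value + 1) over genes with a mean of at least 10, with Benjamini-Hochberg adjustment over all genes. Both the members' differences at each week and the gap between them are descriptions. Weeks were compared in limma on log2 CPM (TMM, prior count 2) of the recovered whole reads, all 18 libraries in 1 fit of 4 groups. A call needed a log2 difference of 0.5 and an adjusted p under 0.05. Alternatives used edgeR (4.0.16, quasi-likelihood) and DESeq2 (1.42.0) on whole reads, other pseudocounts, filters and scalings, and each library left out. The limma, edgeR and DESeq2 fits were run on simulated counts. These had a single spread for all genes and planted changes larger than most of the members' differences, so they check the code alone. Detection floors cover counting only, whereas the SEs and SDs given reflect the spread between libraries.

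The study's methods give 1 more library per group at 12 weeks than the labels, which were followed. Groups and replicate numbers came from the labels, which do not say that a shared number marks shared animals. The members, lists and the rule for named genes were chosen with earlier results of these data known. That rule names the members the study labels, a defining gene of each role and the 3 largest differences in each direction per contrast. Replicates differed by more than sampling noise in every pair. Promoter windows came from RefSeq GRCr8. Protein sequences and Pecam1 were not analysed here.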

Additional observations from a re-analysis of the deposited data

Results flagged for a closer look

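Values were checked for a library far from the rest of its group, by the gap to its nearest neighbour as a share of the group's range, over 108 groups of 4 or 5 libraries, where chance flags about 1 in 20. In all, 8 values stood apart, and no explanation was tested for them. In sham replicate 3 of 12 weeks 3 members were high, Postn (1987 normalized reads, next 1074), Cthrc1 (91.6, next 28.0) and Efemp1 (2768, next 1677). OA replicate 2 of 4 weeks was high in Pdgfra (873, next 615) and Dcn (5474, next 3882). The shallow sham replicate 3 of 4 weeks was high in Clec3b (726, next 406). At 12 weeks OA replicate 1 was high in Postn (3007, next 1956) and OA replicate 4 low in Thy1 (429, next 652).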

How the results depend on the processing

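For 12 against 4 weeks, 350 values of the named members with the largest changes were recomputed under alternatives, of which 19 gained a call, 28 lost one and none reversed. The 860 OA against sham values, which carry no test, each moved by less than the SD between replicates. For limma fits with a library left out this was bound to hold, so it is no check of them. At 12 weeks the OA minus sham difference ranged over the alternatives from 1.18 to 1.89 in Cthrc1 and from 0.40 to 0.91 in Has1. Signs of small OA minus sham differences turned in Clec3b, Fbn1, Fn1, Islr and Pdpn at 4 weeks and in Fbn1 and Pdpn at 12 weeks.

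The number of members called in OA against sham was 0 at 4 weeks, 3 with DESeq2 and 4 with DESeq2 without sham replicate 3, an alternative added after seeing the data, and leaving out 1 library in limma gave 0 to 0. At 12 weeks it was 0, 11 with DESeq2 and 20 with DESeq2 without sham replicate 3 (also added later), and 0 to 13 when 1 library was left out. For 12 against 4 weeks in sham it was 3, 5 with DESeq2 and 2 to 5 when 1 library was left out. In OA it was 2, 1 when every gene with a read was kept, 5 with DESeq2 and 1 to 4 when 1 library was left out, 1 without any single OA library other than replicate 3 of 4 weeks and 4 without sham replicate 3 of 4 weeks. Over all genes, DESeq2 called 548 against 207 by limma between weeks in sham and 265 against 137 in OA. No share of all genes is given for the fits with a library left out, so those member counts have no background beside them. The median correlation of a member with the other members was 0.43 at 4 weeks without sham replicate 4 and 0.38 at 12 weeks without sham replicate 3.

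With the replicate number as a block, OA against sham at 4 weeks gave 1 member (C1qtnf3) and 12 against 4 weeks gave 4 in OA (Has1, Pdpn, Prg4 and Vit) and 4 in sham (Fbn2, Has1, Pdpn and Prg4). No share of all genes is given for the block fits, so nothing is read from these counts. Same-numbered OA and sham libraries correlated at -0.13 to 0.08 at 4 weeks and -0.03 to 0.30 at 12 weeks, so the numbers were not taken as pairs. The reads of Mfap4 and Aspn lay under the detection floor in all libraries.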
